A study of Homo sapiens with 16 samples.

Results

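Retained-intron transcripts are spliced RNAs that keep sequence which the coding transcripts of the same gene remove as an intron. The members described here are the transcripts that GENCODE 29 annotates with that type and that had at least 20 estimated counts in 3 libraries. They were 11711 of the 25690 retained-intron transcripts in the table (45.6%), which itself held 166096 transcripts, and they came from 5278 genes. Of these genes 2512 hosted 1 member and 2766 hosted 2 or more, up to 20, so members of a gene share its RNA and are not independent. Members were thus chosen by their annotated type and their estimated counts over all 16 libraries, so their level is a description. At its edge, the 216 retained-intron transcripts whose third-highest count was 20 had a median of their mean levels of 0.313 CPM, the usual unit of counts scaled to library size. The 256 just outside, with a third-highest count of 19, had 0.298 CPM.

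The libraries hold polyadenylated RNA of HCT116, an established human colon cancer line, sequenced with a strand-specific protocol. Wild-type cells were compared with cells in which the long noncoding RNA NORAD was knocked down by CRISPR interference (CRISPRi), in which an inactive Cas9 with a repressor is guided to a promoter. The labels give induction with doxycycline at 0.5 µg/ml for 24 h, 48 h or 96 h, list that treatment for wild-type samples too, and do not say whether the wild-type cells carried the CRISPRi components. Each 24 h group has 2 libraries and each later group 3, all from bulk extracts. The stated purpose was to find expression and splicing changes after NORAD loss. The labels do not say that replicates were separate cultures, so p-values measure the spread between these libraries only.

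Introns are removed by the spliceosome, which recognises a donor site at the 5′ end of the intron and an acceptor site at its 3′ end. Introns that are often kept tend to be short, rich in G and C and flanked by weak sites, and many RNAs that keep one stay in the nucleus or are destroyed by nonsense-mediated decay. NORAD is an abundant noncoding RNA known for binding Pumilio proteins, and a complex with the RNA-binding protein RBMX, the topoisomerase TOP1 and PRP19 splicing-associated proteins has been described.

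The splice sites of 11 members described below are printed first to show the introns they keep. They are 5 members whose share of the gene passed at 48 h and 6 described for their level, chosen after values were seen. Each member holds, as exon, a whole intron of a coding transcript of its gene, and where it holds several the longest is given. Donor lines give 3 exon bases in lower case and the first 6 intron bases in capitals. Acceptor lines give 18 intron bases in lower case, the last 2 intron bases in capitals and 3 exon bases in lower case. Sequences are from the GENCODE 29 transcripts, 5′ to 3′ on the strand of the gene.
MIB2-210 donor: aagGTGCCG
MIB2-210 acceptor: cgcccctctttgtcgctcAGcac
AKT2-218 donor: aagGTTAGT
AKT2-218 acceptor: tccgttgacttttccaacAGctg
E2F4-208 donor: ctgGTGCGG
E2F4-208 acceptor: ttctccattctctctgccAGgca
MPI-214 donor: gagGTGAGC
MPI-214 acceptor: tatcatttcttcctgcccAGgtc
TFAP4-206 donor: aggGTGGGT
TFAP4-206 acceptor: gtccctgtcctctctggcAGcct
CENPT-218 donor: ataGTGAGT
CENPT-218 acceptor: attctctccccttcactcAGgcc
CENPT-233 donor: caaGTAAGG
CENPT-233 acceptor: tgttactactctgcccacAGaca
CENPT-234 donor: gcgGTGAGA
CENPT-234 acceptor: cttctcttcctccactgcAGgca
FKBP10-204 donor: ctcGTGGGT
FKBP10-204 acceptor: gggcatctgctctcccccAGgca
FKBP10-207 donor: aggGTAAGT
FKBP10-207 acceptor: ctcccccattctggcctcAGgag
DDX5-215 donor: tagGTTAGT
DDX5-215 acceptor: cacactgcaacaccttacAGatg

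On GRCh38, the intron of MIB2-210 lies at chr1:1625654-1626649 on the plus strand (996 bases), that of AKT2-218 at chr19:40236386-40237968 on the minus strand (1583 bases) and that of E2F4-208 at chr16:67192363-67192760 on the plus strand (398 bases). The MPI-214 intron is at chr15:74896326-74897511 on the plus strand (1186 bases) and the TFAP4-206 intron at chr16:4262702-4263666 on the minus strand (965 bases). The CENPT introns lie on the minus strand, with that of CENPT-218 at chr16:67830089-67830389 (301 bases), CENPT-233 at chr16:67830549-67831215 (667 bases) and CENPT-234 at chr16:67828391-67828473 (83 bases), and CENPT-233 keeps the CENPT-218 intron as well. The FKBP10 introns lie on the plus strand at chr17:41820462-41820946 (FKBP10-204, 485 bases) and chr17:41820024-41820268 (FKBP10-207, 245 bases), and the DDX5-215 intron on the minus strand at chr17:64500774-64502009 (1236 bases). Every one of these 11 introns begins with GT and ends with AG.

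Library totals lay between 28391784 and 51853876 estimated counts. The 48 h level of NORAD was 154 to 166 CPM without and 18.4 to 25.0 CPM with knockdown, and the 96 h level 183 to 187 CPM without and 66.6 to 81.5 CPM with it. The 24 h wild-type libraries had 174 and 194 CPM, and those labelled knockdown had 225 and 183 CPM, so the label was not borne out by its target there, and knockdown at 24 h is a label only. Epithelial markers of the line were present in every library (EPCAM 192 to 317 CPM, KRT8 1618 to 2895 CPM, CDH1 64.8 to 140 CPM), while LGALS4 and VIL1, markers of differentiated colon epithelium, stayed at or below 0.788 and 0.68 CPM. KRT20 and ELF3 of the same list were at 1.78 to 15.7 CPM and 26.4 to 267 CPM. The leukocyte markers PTPRC and CD3E and the collagen gene COL3A1 were at or below 0.257, 0.175 and 0.184 CPM. Of the markers of other cells, COL1A1 (34.0 to 79.1 CPM) and CD68 (8.87 to 50.7 CPM) were higher. At 48 h the sum of that list was 44.4 to 46.4 CPM in wild-type and 76.1 to 91.8 CPM in knockdown libraries. It overlapped at 24 h, and at 96 h it was 55.9 to 65.3 and 71.2 to 78.3 CPM. The sum of the epithelial list was 5198 to 5356 CPM in wild-type and 3377 to 4110 CPM in knockdown libraries at 48 h. At 24 h it was 4586 to 4912 and 3793 to 4204 CPM. At 96 h the order was reversed, with 3605 to 3905 and 4243 to 4456 CPM. The part of these markers in the results was not tested. In bulk RNA, fewer cells of a type and less RNA per cell cannot be told apart.

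Most members were scarce and made up a small part of their gene. The median of the mean levels was 1.23 CPM (quartiles 0.593 and 3.10), 862 members reached 10 CPM and 34 reached 100 CPM. The median share of the gene's counts was 2.73% (quartiles 1.00% and 7.39%), 2259 members held at least 10% of their gene and 307 at least 50%. The 12 most abundant held 9.97% of all member counts and came from genes of ribosomal proteins (RPL13, RPL4, RPL37A, RPS28), the RNA helicase DDX5, the glycolytic enzyme ALDOA, the nucleolar chaperone NPM1, the poly(A)-binding protein PABPC1, the replicative helicase subunit MCM7 and the neuronal transcription factor NEUROD2. RPL13-207 was the highest at a mean of 988 CPM and 35.8% of its gene, and RPL4-203 followed at 845 CPM and 46.5%. Ribosomal protein genes have many processed pseudogenes, and reads shared between overlapping transcripts were divided by a model, so these values are uncertain.

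Of the members, 4858 (41.5%) held at least 1 whole coding intron and 6853 did not, for example because they start or end inside an intron. Among retained-intron transcripts below the count minimum 18.5% held one; those were shorter, with a median length of 596 against 955 bases. The 7376 distinct introns kept by members had a median length of 273 bases (quartiles 131 and 611), while the 95758 introns of coding transcripts of the same genes had a median of 1286 bases (quartiles 384 and 3743). At most 200 bases long were 38.6% of the kept introns and 15.1% of the coding introns of the same genes. An intron could count as kept only if it fitted inside an exon of a member, which leaves out long introns. The direction of this difference was thus favoured by the rule, and how much of it remains beyond the rule was not tested. The kept introns had a median GC content of 57.3%, against 56.2% for those in retained-intron transcripts below the count minimum. GC content of all other coding introns was not computed. The kept introns began with GT and ended with AG in 97.4% of cases, with GC and AG in 1.49% and with AT and AC in 0.149%. The donor hexamer GTGAGT opened 14.3% of them and GTAAGT 7.21%, against 15.1% and 8.13% of the introns kept in transcripts below the count minimum; the search was on the gene's strand. Splice sites with GTGAGT or GTAAGT among those printed are those of CENPT-218 and FKBP10-207.

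**Figure D1:**
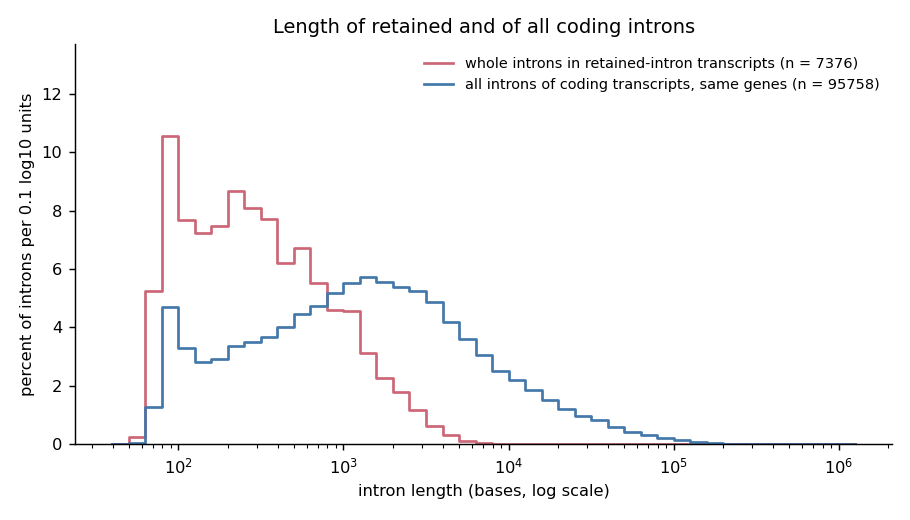
Percent of introns per step of 0.1 log10 units against intron length in bases (log scale), for the 7376 whole introns kept in members and the 95758 introns of coding transcripts of the same genes. The kept introns peak at shorter lengths (median 273 against 1286 bases), which is favoured by the rule that a kept intron fits inside an exon of a member.

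Members held 3.98% to 5.88% of the matched counts of a library, and 1 knockdown library at 48 h stood apart from its replicates. At 48 h the wild-type libraries were at 3.98%, 4.18% and 4.14% and the knockdown libraries at 5.59%, 5.18% and 4.09%. Knockdown replicate 3 lay within the range of the wild-type libraries and the other 2 lay above it. At 24 h the wild-type libraries were at 5.06% and 4.81% and those labelled knockdown at 5.43% and 5.88%, with no overlap. At 96 h the values were 4.44%, 4.36% and 4.51% against 4.40%, 4.54% and 4.77%, which overlap.

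The mean difference, knockdown minus wild type, was 0.716 percentage points at 24 h (exact permutation test, two-sided, p = 0.3333, the smallest 2 against 2 allow), 0.856 points at 48 h (exact p = 0.3) and 0.132 points at 96 h (exact p = 0.4), where 3 against 3 cannot go below 0.1. With labels permuted within each time, the mean difference over the 3 times was 0.568 points (exact permutation p = 0.0142, adjusted p = 0.13 over 16 tests of 4 transcript types). By the same test the types processed_transcript and nonsense_mediated_decay changed by 0.156 and 0.082 points (exact permutation p = 0.0258 and 0.0325). The type protein_coding changed by -1.17 points (exact permutation p = 0.0317), and all 3 had the same adjusted p of 0.13. Group means (SD) were 4.94% (0.171, n = 2) and 5.65% (0.319, n = 2) at 24 h, 4.10% (0.107, n = 3) and 4.95% (0.774, n = 3) at 48 h, and 4.44% (0.0771, n = 3) and 4.57% (0.185, n = 3) at 96 h. MALAT1, a noncoding RNA kept in nuclear speckles, was at 3255, 4402 and 1640 CPM in knockdown replicates 1, 2 and 3 at 48 h and at 1653 to 2215 CPM in wild type. It was thus high in the 2 knockdown libraries of 48 h in which the member share was high. NEAT1, another nuclear RNA, was at 231, 204 and 105 CPM in the same knockdown libraries and 120 to 136 CPM in wild type, so it was high in the same 2 libraries. At 24 h, where the member share did not overlap, MALAT1 did. It was at 1301 and 1936 CPM in wild type and 1413 and 1608 CPM in the libraries labelled knockdown. At 96 h NEAT1 was lower in knockdown, at 237 to 252 CPM against 291 to 330 CPM in wild type. The part of MALAT1 and NEAT1 in the result was not tested. Mitochondrially encoded transcripts held 4.89% to 5.05% of matched counts in wild type and 6.08% to 6.10% in the libraries labelled knockdown at 24 h, and 10.4% to 11.2% against 12.3% to 13.8% at 48 h, without overlap, while the 96 h groups overlapped. With these transcripts left out the differences in member share were 0.824, 1.10 and 0.152 points at 24 h, 48 h and 96 h.

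**Figure D2:**
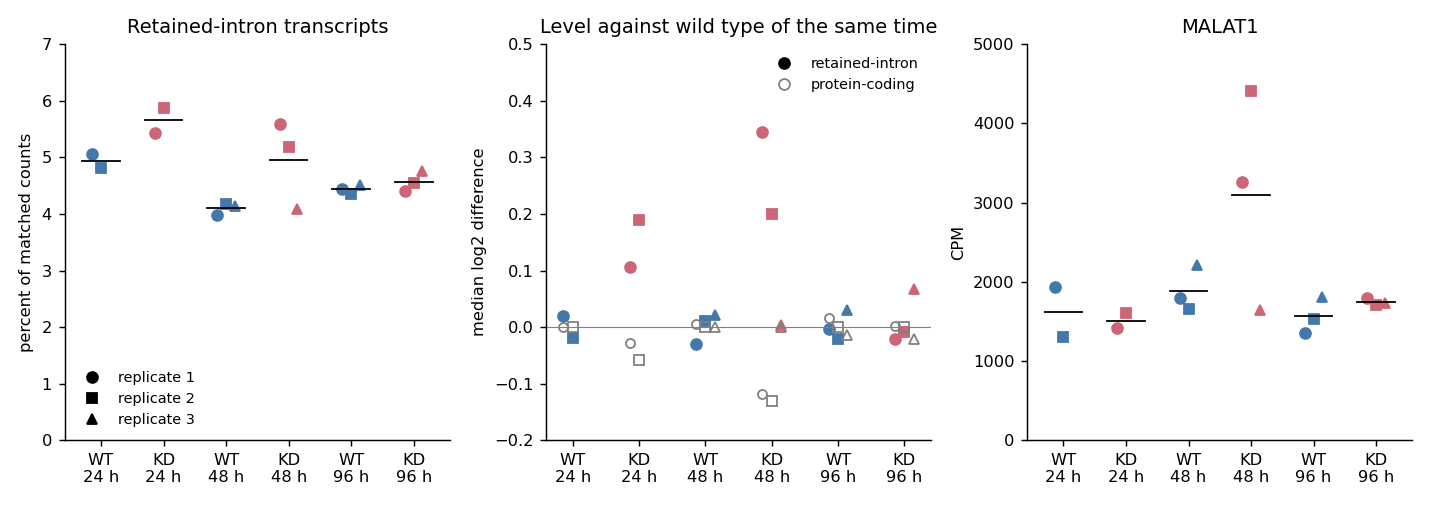
Per library, the percent of matched counts in members (left), the median log2 difference of members (filled) and protein-coding transcripts (open) from the wild-type mean of the same time (middle), and MALAT1 in CPM (right), for wild type (WT) and knockdown (KD) with replicates as symbols and, left and right, group means as lines. At 48 h, replicates 1 and 2 of the knockdown stand above wild type in all 3 panels for members and MALAT1, and replicate 3 does not.

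At 48 h members passed as rises more often than as falls, and for most of these rises the rest of the gene was higher as well. With edgeR, 355 members rose (3.03%) and 105 fell (0.897%) at adjusted p under 0.05, in 396 genes. Over all 80743 transcripts tested, 4.66% passed, of which 1.55% rose and 3.11% fell. The median log2 fold change was 0.31 over the members, 0.06 over all transcripts and -0.05 over protein-coding transcripts. For the annotated types processed_transcript and nonsense_mediated_decay it was 0.17 and 0.00. Positive fold changes made up 69.2% of members and 57.7% of the type processed_transcript, so part of the shift was shared with that type. In single knockdown libraries the median difference of members from wild type was 0.34, 0.20 and 0.00 on the log2 scale in replicates 1, 2 and 3. The count depended on that split: without knockdown replicate 3, 1390 members passed, without replicate 1, 172, and of the 355 rises 348 and 104 were among those calls. Without wild-type replicate 1 of 48 h 179 passed, and a fit of the 48 h libraries alone called 2. With total-count scaling, 518 rose and 53 fell.

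The 355 members that rose at 48 h had a median log2 fold change of 1.16, a median length of 2138 bases and a median share of 7.76% of their gene. Of them 195 (54.9%) held a whole intron, and among all members 4.01% of those with a whole intron and 2.33% of those without rose. Falls made up 1.01% and 0.817% of these classes. Their median log2 fold changes had the other order, 0.28 with a whole intron and 0.33 without. The summed counts of the other transcripts of the gene were higher in knockdown for 293 of the 355 and lower for 60, with a median log2 change of 0.32. Over all 11711 members these sums were higher for 4919 and lower for 6771, with a median of -0.07. The share of the gene was higher in knockdown for 340 and lower for 13, with a median change of 2.62 percentage points. Among all members the share was higher at 48 h for 8367 and lower for 3296. The 105 members that fell had a median log2 fold change of -0.86, and the rest of their gene was lower for 95. In 348 of the 355 rises and 104 of the 105 falls the groups of libraries did not overlap, counts that the test favours and that are no further support. Members named here as the largest rises or falls had to show no overlap, so for them it is part of the choice. In knockdown replicates 1, 2 and 3 the rises had a median difference from wild type of 1.06, 0.93 and 0.57 on the log2 scale, and the falls of -0.88, -0.84 and -0.64.

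**Figure D3:**
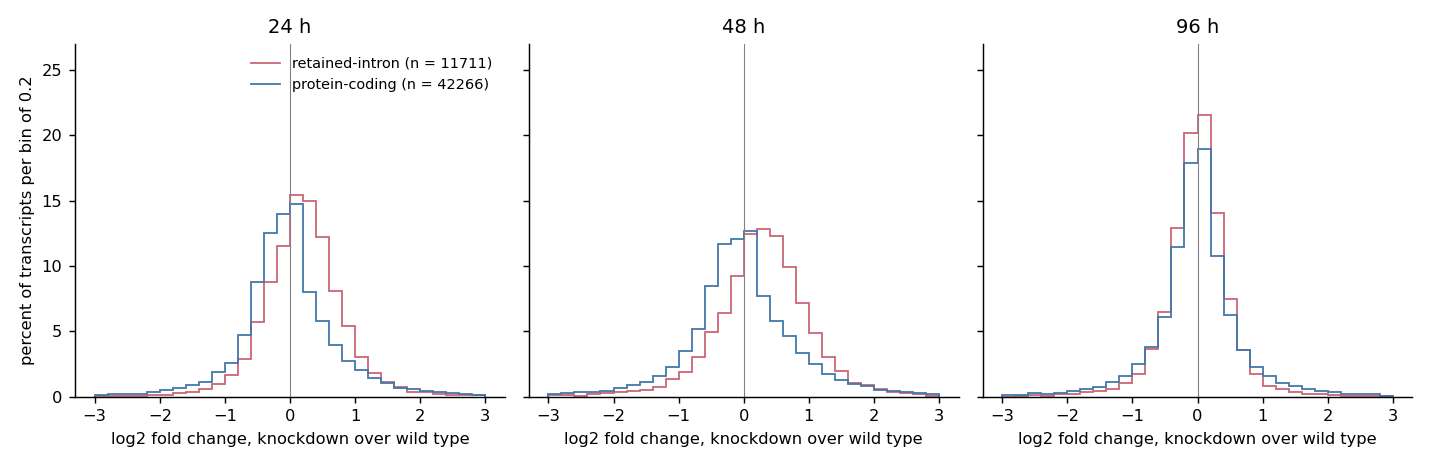
Percent of transcripts per bin of 0.2 against the edgeR log2 fold change of knockdown over wild type at 24 h, 48 h and 96 h, for the 11711 members and the protein-coding transcripts tested. The members lie to the right of the protein-coding transcripts at 24 h and 48 h (medians 0.21 and -0.04, then 0.31 and -0.05) and on them at 96 h (0.01 and -0.01).

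CENPT, an inner kinetochore protein that links centromeric chromatin to the spindle attachment machinery, hosted CENPT-218, 1 of the 2 members that rose at all 3 times. CENPT-218 was at 39.5, 32.4 and 35.7 CPM in wild type and 84.0, 91.4 and 80.6 CPM in knockdown at 48 h. It was at 21.0 and 15.6 against 43.0 and 53.2 CPM at 24 h, and at 24.1, 23.5 and 22.9 against 39.7, 40.8 and 39.8 CPM at 96 h. The groups did not overlap at any time, and the lowest ratio was at 96 h. The log2 fold changes were 1.25 (SE 0.115) at 48 h, 1.40 (SE 0.142) at 24 h and 0.77 (SE 0.114) at 96 h, with edgeR adjusted p-values of 0.000159, 0.000811 and 0.00941. The 96 h call was lost without any one of wild-type replicates 1, 2 and 3 (adjusted p 0.0535, 0.0518 and 0.077) or of knockdown replicates 2 and 3 (0.0648 and 0.058).

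The other transcripts of CENPT summed to 50.2 CPM (SD 6.47, n = 3) in wild type and 195 CPM (SD 29.2, n = 3) in knockdown at 48 h, and CENPT-218 held a mean of 41.8% and 30.6% of the gene (limma adjusted p = 0.159). CENPT-233 was at 32.1, 35.2 and 32.1 CPM against 107, 96.0 and 78.8 CPM at 48 h, with no overlap. Its log2 fold change was 1.50 (SE 0.129, edgeR adjusted p = 9.95e-05). CENPT-234, which keeps another intron, went from 2.12, 2.78 and 2.87 to 8.92, 12.4 and 6.12 CPM (log2 fold change 1.82, edgeR adjusted p = 0.00205). These 3 of the 8 members of CENPT passed at 48 h, with the rest of the gene higher in knockdown too.

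FKBP10, an endoplasmic reticulum prolyl isomerase that helps fold collagen, hosted 2 members that fell at 24 h and 48 h. FKBP10-204 was at 10.2 and 10.1 CPM in wild type and 1.54 and 1.89 CPM in the libraries labelled knockdown at 24 h. At 48 h it was at 7.83, 7.86 and 8.03 against 2.23, 2.11 and 2.22 CPM, and at 96 h at 9.34, 7.76 and 9.36 against 7.23, 7.88 and 9.19 CPM. The groups were apart at 24 h and 48 h and overlapped at 96 h. The log2 fold changes were -2.56 (SE 0.177), -1.85 (SE 0.141) and -0.12 (SE 0.135), with edgeR adjusted p-values of 3.76e-05, 4.91e-05 and 1.0. The rest of the gene went from 56.8 to 7.40 CPM at 24 h and from 37.7 to 10.4 CPM at 48 h, and FKBP10-204 held 15.1% and 18.8% of it at 24 h and 17.3% and 17.8% at 48 h. FKBP10-207 fell with it (log2 fold change -2.88 at 24 h and -1.88 at 48 h, edgeR adjusted p = 0.00191 and 0.00156).

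HHLA1-203, which held 99.7% or more of the counts of HHLA1 in every library, was lower at each time in the libraries labelled knockdown. It was at 58.0, 60.4 and 75.7 CPM in wild type and 33.9, 34.3 and 37.7 CPM in knockdown at 48 h, and at 46.4, 44.8 and 46.7 against 22.6, 22.2 and 28.4 CPM at 96 h. At 24 h it was at 51.1 and 42.7 against 19.4 and 19.4 CPM. No groups overlapped, and the log2 fold changes were -0.87, -0.91 and -1.27, with edgeR adjusted p-values of 0.00149, 0.00445 and 0.00221. The third member called at all 3 times was RHPN1-203, which falls outside the rule for named members. It rose by 0.72, 0.455 and 0.515 on the log2 scale at 24 h, 48 h and 96 h (edgeR adjusted p = 0.015, 0.0233 and 0.0465).

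**Figure D4:**
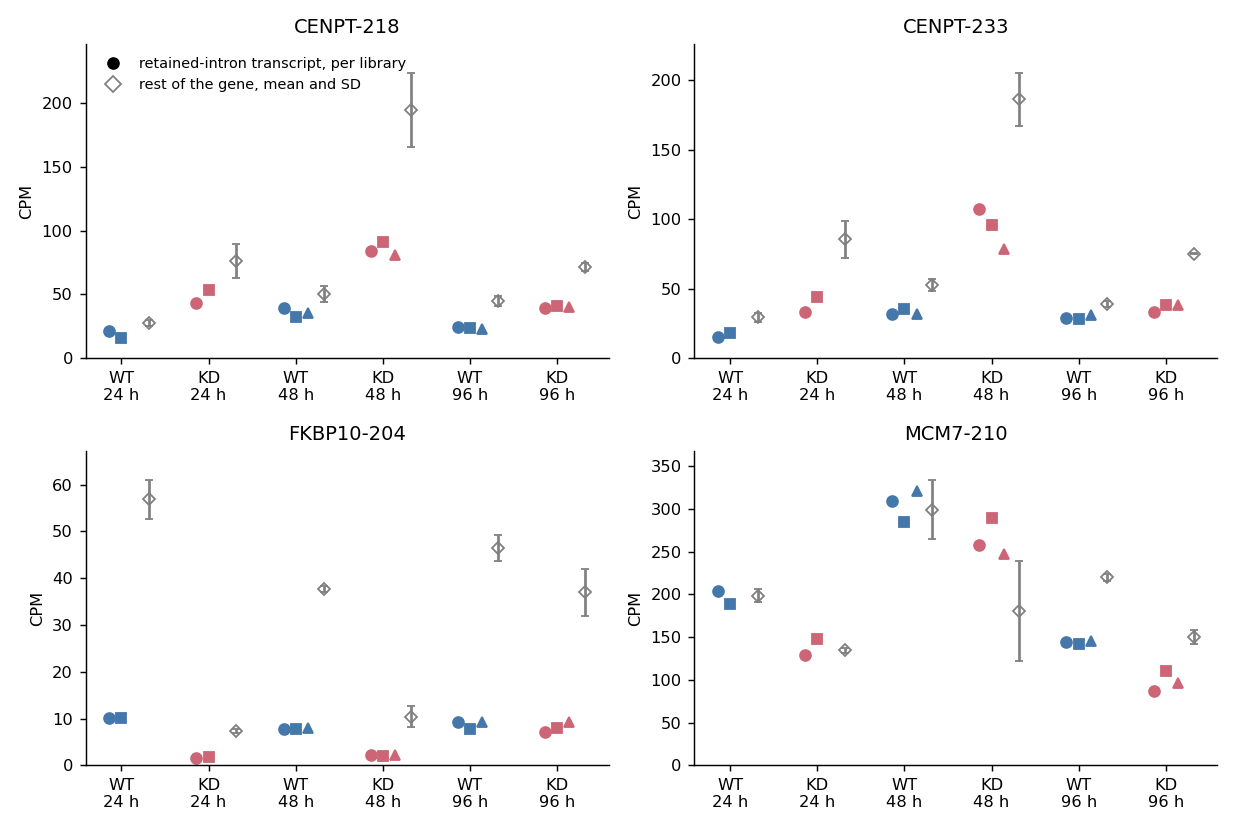
CPM per library of CENPT-218, CENPT-233, FKBP10-204 and MCM7-210 in wild type (WT) and knockdown (KD) at 24 h, 48 h and 96 h (replicates as symbols), with the mean and SD of the rest of the gene as open diamonds. Both CENPT members and the rest of CENPT are high at 24 h, in the libraries labelled knockdown, and at 48 h, FKBP10-204 is low with the rest of FKBP10 at 24 h and 48 h, and MCM7-210 is low with the rest of MCM7 at 96 h.

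Of the members hosted by interferon-stimulated genes, which respond to antiviral signalling, some rose at 48 h. Of 53, 10 rose (18.9%) and none fell, with a median log2 fold change of 0.84; 23 rises and 0 falls had an unadjusted p under 0.05, and DESeq2 called 17 and 0. Without knockdown replicate 1, 2 of the 53 rose, and without replicate 2, 5. At 24 h 2 rose and the median was 0.54, and at 96 h 1 rose and the median was 0.37. These are levels. In share of the gene 16 of the members were tested with limma and 0 passed at any of the 3 times. Their median log2 changes relative to the rest of the gene were -0.13, 0.17 and -0.17 at 24 h, 48 h and 96 h.

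Among members hosted by genes of mitosis and the centromere, 4 of 38 rose and none fell at 48 h (9 and 0 at unadjusted p under 0.05, DESeq2 7 and 0), and 3 of the 4 were the CENPT members. At 96 h 1 of the 38 rose and none fell, but the median was -0.32, with 3 rises and 9 falls at unadjusted p under 0.05 and 1 and 5 with DESeq2. For glycolysis and hypoxia genes 5 of 63 rose and none fell (9 and 2 unadjusted, DESeq2 6 and 1), and 4 of these were from PKM, the pyruvate kinase that closes glycolysis. PKM-214 was at 25.3, 27.5 and 29.6 CPM in wild type and 68.2, 68.5 and 47.4 CPM in knockdown, without overlap. Its log2 fold change was 1.16 (SE 0.146, edgeR adjusted p = 0.000913), and those of PKM-212 and PKM-209 were 1.10 and 1.00 (adjusted p = 0.00234 and 0.00877), while PKM-213, the other, falls outside the rule for named members. PKM-214 held 3.45%, 3.47% and 1.83% of its gene in the knockdown libraries and 1.54%, 1.68% and 1.83% in wild type, so replicate 3 lay with wild type in share but not in level. PKM-209, PKM-212 and PKM-214 passed in every fit that left out 1 library.

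Members hosted by genes of cytosolic ribosomal proteins moved the other way. At 48 h 14 of 196 fell (7.14%) and none rose, and at 24 h 7 fell (3.57%) and none rose. Of all transcripts 3.11% fell at 48 h and 1.01% at 24 h. At unadjusted p under 0.05 the falls and rises were 46 and 1 at 48 h and 35 and 1 at 24 h, and DESeq2 called 31 and 1, then 21 and 0. The median log2 fold changes were -0.18 at 48 h and -0.29 at 24 h, and with total-count scaling, which moves the median of all transcripts from 0.06 to 0.20 and from 0.01 to 0.20, they were -0.03 and -0.09 with 6 and 0 falls. Without knockdown replicate 1 of 48 h, 6 of the 196 fell at 48 h, and without its replicate 2, 2 fell at 24 h. RPL17-206, of a large-subunit protein, was at 10.6, 9.88 and 12.2 CPM in wild type and 5.80, 5.96 and 6.23 CPM in knockdown at 48 h, without overlap (log2 fold change -0.86, SE 0.154, edgeR adjusted p = 0.00759). RPL22-206 had a log2 fold change of -0.62 (adjusted p = 0.00912), and both calls held in every fit that left out 1 library.

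For ribosome biogenesis genes 2 of 47 fell (4.26%) and none rose at 48 h (10 and 0 unadjusted, DESeq2 5 and 0), with a median of -0.45, or -0.28 with total-count scaling. At 48 h 0.897% of all members and 3.11% of all transcripts fell, so this count is near the latter share. The 2 members were NPM1-210, at 277, 306 and 284 CPM in wild type and 120, 135 and 203 CPM in knockdown (log2 fold change -0.92, SE 0.154, edgeR adjusted p = 0.00531), and WDR12-208 of a pre-60S assembly factor (-1.30, SE 0.222, adjusted p = 0.00587). The groups did not overlap for NPM1-210, with replicate 3 nearest to wild type. Of 80 members hosted by snoRNA host genes, which carry small nucleolar RNAs in their introns, 5 fell (6.25%) and none rose at 48 h (15 and 1 unadjusted, DESeq2 11 and 1). With total-count scaling 1 of these 80 fell, and without knockdown replicate 1, 2 fell.

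Members hosted by splicing factors, some of which regulate their own RNAs through retained introns, passed in small numbers at 48 h, and their medians were near or below the 0.31 of all members. At that time 3.03% of all members and 1.55% of all transcripts rose, and 0.897% and 3.11% fell. Whether these lists differ from those shares was not tested. Of 53 in SR protein genes none passed at 48 h (edgeR, 5 rises and 2 falls at unadjusted p under 0.05, DESeq2 1 and 0), with a median of 0.29, and without knockdown replicate 3, 5 rose and 1 fell. Of 64 in genes of the hnRNP and PTB family none passed (3 and 5 unadjusted, DESeq2 2 and 2), with a median of 0.09. Of 152 in genes of splicing kinases and core splicing regulators 3 rose (1.97%) and none fell (21 and 4 unadjusted, DESeq2 10 and 2). None of the 152 rose without knockdown replicate 1 or 2, and 13 rose without replicate 3. RBM23-233 was 1 of the 3, with a log2 fold change of 1.02 (SE 0.264, adjusted p = 0.0478). Of 121 in a list of hosts of known regulated retained introns, 1 rose (0.826%), GABBR1-207 of a GABA-B receptor subunit (log2 fold change 1.02, SE 0.237, adjusted p = 0.0287), and none fell. Without knockdown replicates 1, 2 and 3 of 48 h the rises were 0, 2 and 5, and GABBR1-207 lost its call in 5 of 16 fits that left out 1 library (adjusted p up to 0.108). Of 63 in genes of RNA export and decay none passed (11 and 3 unadjusted, DESeq2 3 and 1), with a median of 0.38.

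None of the 18 members hosted by TOP1, RBMX and PRP19 complex genes passed at any time with edgeR. At unadjusted p under 0.05 the falls were 4 at 24 h, 2 at 48 h and 1 at 96 h with 0 rises each, and DESeq2 called 1 fall at each time. The median log2 fold changes were -0.18, -0.01 and -0.18, and with total-count scaling 0.01 and 0.15 at 24 h and 48 h. The lowest adjusted p at 48 h was that of HSPA8-219, from the chaperone gene HSPA8 (log2 fold change -0.71, SE 0.192, adjusted p = 0.0549). HSPA8-219 passed with upper-quartile scaling (adjusted p = 0.0474), with at least 1 CPM in 3 libraries (0.0449) and without knockdown replicate 3 of 48 h (0.0144). For RBMX-210, at a mean of 0.271 CPM, the SE of 1.54 at 48 h was close to the size of the change of -2.04, so no difference was detectable at this depth.

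At 24 h, where NORAD was not lower in the libraries labelled knockdown, 45 members rose (0.384%) and 25 fell (0.213%), while 0.375% and 1.01% of all transcripts rose and fell (1.38% passed). The median over the members was 0.21 against 0.01 over all transcripts and 0.06 over those of the type processed_transcript. Left-out libraries moved the 70 calls to between 15 and 124, and a fit of the 24 h libraries alone gave 0. With total-count scaling 65 rose and 11 fell. NAGK-212, of a kinase that salvages N-acetylglucosamine, was at 0 in both wild-type libraries and at 2.07 and 1.82 CPM in the libraries labelled knockdown, at least 36.1-fold higher against a floor of 3 counts over the group (edgeR adjusted p = 4.22e-05). At 48 h it was at 1.69, 2.11 and 1.97 against 2.06, 1.97 and 2.59 CPM, which overlap, so the 24 h wild-type libraries were the low ones. Of the 45 rises at 24 h 11 also rose at 48 h (24.4%, and 3.10% of the 355), and of the 25 falls 11 also fell (44.0%, and 10.5% of the 105).

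At 96 h 6 members rose (0.0512%) and 2 fell (0.0171%), while 0.224% and 0.302% of all transcripts did (0.526% passed). At unadjusted p under 0.05 there were 255 rises and 242 falls, the median over the members was 0.01, and left-out libraries gave 1 to 22 calls, the most without knockdown replicate 3 of 48 h. The rises and falls were 4 and 5 with total-count scaling, 5 and 3 with upper-quartile scaling and 67 and 40 with DESeq2. Of the 6 rises 5 had also risen at 48 h. AES-209, of a corepressor of the Groucho family, was at 51.9, 40.2 and 48.2 CPM in wild type and 71.5, 74.5 and 89.4 CPM in knockdown, without overlap (log2 fold change 0.75, SE 0.118, edgeR adjusted p = 0.0151). It lost the call without knockdown replicates 2 or 3 (0.0516 and 0.08) or wild-type replicates 2 or 3 of 96 h (0.0712 and 0.0718).

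MCM7-210, of a subunit of the replicative DNA helicase, was at 145, 141 and 146 CPM in wild type and 87.2, 110 and 95.8 CPM in knockdown at 96 h, without overlap. Its log2 fold change was -0.56 (SE 0.0915, edgeR adjusted p = 0.018), the rest of the gene went from 220 to 150 CPM, and the member held 39.6% and 39.4% of it. The call was lost without knockdown replicates 1 or 3 (0.0805 and 0.11) or any wild-type replicate of that time (0.0665 to 0.0895). Among the other rises were those of CENPT-218, RHPN1-203, EPS8L1-210 of an actin regulator (log2 fold change 0.80, edgeR adjusted p = 0.0467) and TPM2-205 of beta-tropomyosin (0.55, adjusted p = 0.0496). The calls of EPS8L1-210 and TPM2-205 each held in 2 of 16 fits that left out 1 library.

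In the mean of the 48 h and 96 h differences 203 members rose (1.73%) and 70 fell (0.598%), while 1.43% and 2.69% of all transcripts did (4.12% passed), and left-out libraries gave 124 to 857 calls, the most without knockdown replicate 3 of 48 h. For the share of the gene, described next, 0 members passed in that mean with limma (294 rises and 88 falls at unadjusted p under 0.05, 9 calls with diffSpliceDGE), while 0.14% of all transcripts tested did (0.063% rose and 0.0766% fell), and 141 members passed without that library. The difference between knockdown and wild type itself differed between the 3 times for 14 members in level (edgeR F test) and 4 in share (limma F test), while 0.254% and 0.159% of all transcripts tested passed.

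The share of the gene, as the log ratio of a member to the rest of its gene, does not depend on library scaling and was tested with limma for 3186 members, those whose mean share reached 10% in some group. At 48 h 8 passed, all higher in knockdown (0.251%), while 0.241% of the 36533 transcripts tested passed, of which 0.0931% rose and 0.148% fell. The median log2 change of this ratio was 0.27 over the members and -0.05 over all transcripts tested. At unadjusted p under 0.05 there were 506 rises and 106 falls. Without knockdown replicate 3, 384 members rose and 47 fell, and a fit of the 48 h libraries alone called 0.

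MIB2-210, of a ubiquitin ligase of Notch signalling, held 5.46%, 5.999% and 4.55% of MIB2 in wild type and 12.5%, 10.5% and 10.4% in knockdown at 48 h. The groups did not overlap and replicate 3 was close to replicate 2. The log2 change of the ratio was 1.15 (SE 0.153, limma adjusted p = 0.0096), the rest of the gene was at 115 CPM (SD 1.97, n = 3) and 104 CPM (SD 8.68, n = 3), and the call held in all 16 fits that left out 1 library. At 96 h the share was 13.7%, 13.3% and 11.1% against 11.97%, 14.1% and 13.9%, with overlap, so both groups were then near the level of the 48 h knockdown.

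AKT2-218, of a kinase of insulin signalling, went from 6.36%, 7.72% and 8.29% of its gene in wild type to 13.0%, 12.4% and 11.4% in knockdown at 48 h, without overlap (log2 change 0.80, SE 0.140, limma adjusted p = 0.0479). The rest of AKT2 was at 109 and 107 CPM. E2F4-208, of a cell cycle repressor of the E2F family, went from 2.82%, 3.24% and 3.80% to 6.50%, 6.55% and 5.32%, without overlap (log2 change 0.94, adjusted p = 0.0413). The rest of E2F4 was at 191 CPM in wild type and 128 CPM in knockdown. MPI-214, of the enzyme that joins glycolysis to mannose metabolism, went from 5.94%, 6.37% and 6.55% to 12.2%, 14.4% and 9.81% (log2 change 1.02, adjusted p = 0.0409).

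In TFAP4-206, of a basic helix-loop-helix transcription factor, knockdown replicate 3 lay apart. It held 6.84%, 8.64% and 7.71% of its gene in wild type and 25.7%, 31.4% and 13.5% in knockdown at 48 h, with no overlap (log2 change 1.80, SE 0.318, limma adjusted p = 0.0486). PRR5-211, SLC22A18-211 and CKAP2L-204 hold no whole coding intron, and their log2 changes were 1.37, 1.78 and 6.16 (adjusted p = 0.0498, 0.033 and 0.0124). CKAP2L-204 was scarce, at 0.0614, 0 and 0 CPM in wild type and 1.41, 3.73 and 0.683 CPM in knockdown. The calls of AKT2-218, E2F4-208, MPI-214, TFAP4-206, PRR5-211 and SLC22A18-211 held in 2, 4, 1, 1, 1 and 6 of 16 fits that left out 1 library, with highest adjusted p-values of 0.12, 0.11, 0.105, 0.126, 0.134 and 0.0963. With edgeR's diffSpliceDGE, which called 9 members at 48 h, CKAP2L-204 passed (adjusted p = 0.00728) and the other 7 did not, with adjusted p-values of 0.271 to 1.0, among them MIB2-210 at 0.609.

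**Figure D5:**
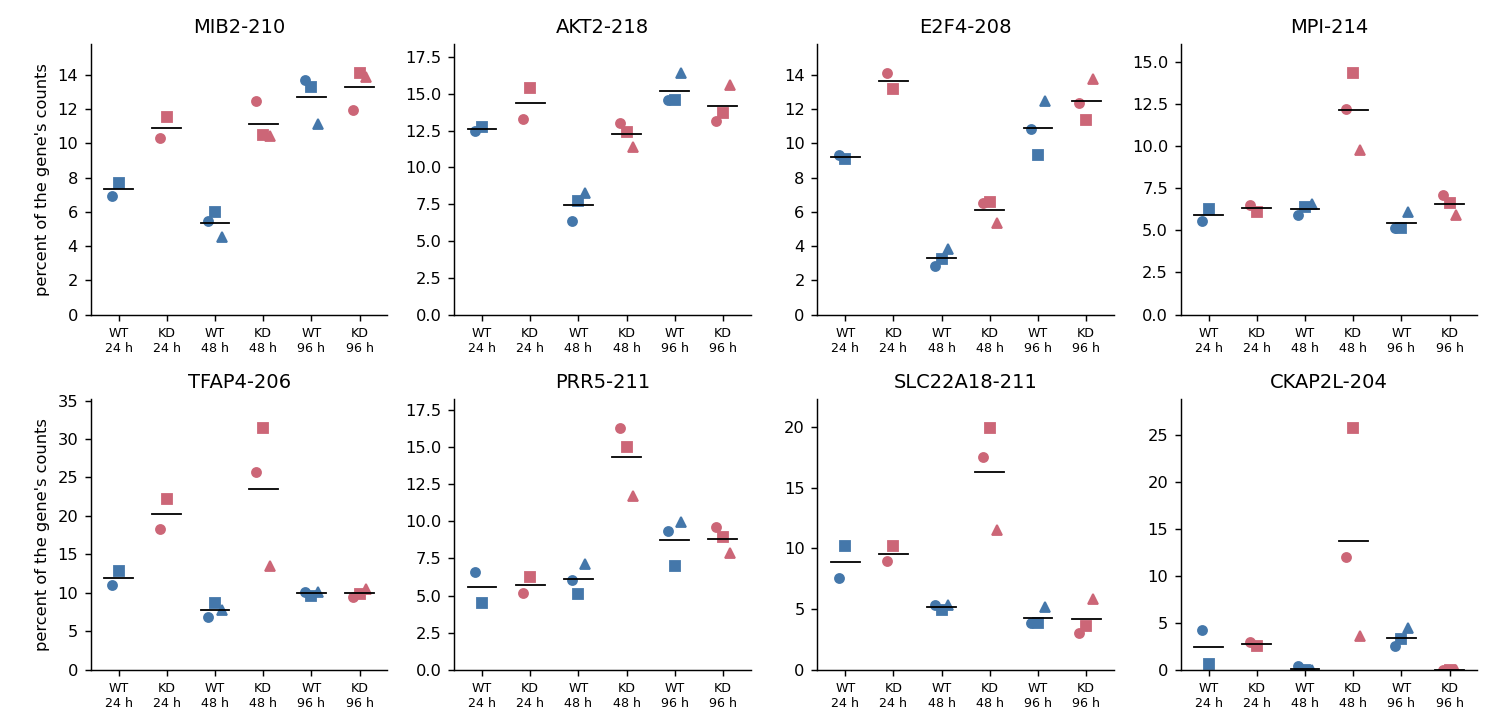
Percent of the gene's counts held by the 8 members whose share passed at 48 h, per library (replicates as symbols, lines are group means), in wild type (WT) and knockdown (KD) at 24 h, 48 h and 96 h. At 48 h every knockdown library lies above every wild-type library in each panel, which the choice of members by the test at 48 h favours. At 96 h the groups overlap in MIB2-210, where both are near 13%.

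At 24 h 1 member rose and 2 fell in share, while 0.101% and 0.112% of all transcripts tested did (0.214% passed), and 217 rises and 51 falls had an unadjusted p under 0.05. CCDC9B-201 rose, and IFT122-222 and U2AF1L4-204 fell, each at 0 in all libraries of one group. At 96 h 0 members passed with limma, with 46 rises and 66 falls at unadjusted p under 0.05, while diffSpliceDGE called 4; 0.0328% of all transcripts tested passed, with 0.0164% in each direction.

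Between wild-type libraries of 96 h and 24 h, 582 members rose (4.97%) and 481 fell (4.11%), close to the 4.92% and 4.49% of all transcripts (9.41% passed). In share of the gene 162 of the 3186 members rose and 131 fell, while 4.76% and 3.96% of all transcripts tested did (8.73% passed). These times hold different libraries, so time in culture and any other difference between the sets of libraries cannot be told apart. DDX5-215 of the RNA helicase DDX5 was at 169 and 190 CPM at 24 h, 321, 319 and 322 CPM at 48 h and 517, 604 and 581 CPM at 96 h in wild type, with no overlap between times. Its log2 fold change from 24 h to 96 h was 1.66 (SE 0.107, edgeR adjusted p = 1.31e-06), and its share of DDX5 went from 40.0% and 40.3% to 65.6%, 66.4% and 68.5%. RPL13-207 rose by 1.27 on the log2 scale (SE 0.146, adjusted p = 0.00015). NEUROD2-202 was at 0.366 and 0.141 CPM at 24 h and 156 to 275 CPM at 96 h in wild type, and at 0.233 and 0.320 against 223 to 334 CPM in the libraries labelled knockdown. WEE2-AS1-205 was at 377 and 164 CPM at 24 h and at or below 0.0243 CPM at 96 h in wild type. It is an antisense gene, and whether the counting used strand is not given in the sources used here.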

How the data were processed

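The deposited table gives estimated counts (expected counts) per transcript, as whole numbers, for 16 libraries of polyadenylated RNA of HCT116 cells in the 6 groups of the sample titles. Build hg19 and the tools DESeq2 and kallisto, which splits reads shared by similar transcripts through a model, were used by the authors per the submitters' processing notes. For versions, index, filters and strand setting: not given in the sources used here. Of 166096 transcripts, 156584 matched GENCODE 29 by Ensembl identifier, and the 9512 others (2.75% to 3.40% of a library's counts) were left out. Types, coordinates (GRCh38) and sequences are from GENCODE 29, not the authors' build, and were matched by identifier only. Members and gene lists were chosen with earlier results of these data known.

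Levels were tested on the deposited estimated counts with edgeR 4.0.16 in R 4.3.3: filterByExpr (80743 transcripts, all 11711 members), TMM scaling, a mean per group, glmQLFit (robust) with 10 residual degrees of freedom and glmQLFTest, Benjamini-Hochberg adjusted over all tested transcripts, threshold 0.05. CPM values use TMM library sizes. Of the members, 15 reached 20 counts in 1 group only, and 481 were at 0 in a whole group, where folds are bounds against 3 counts over the group and cover counting error only. Share of the gene was tested with limma 3.58.1 on log2((transcript + 0.5)/(rest of gene + 0.5)) for transcripts with at least 10% of a gene with at least 20 counts in 3 libraries. Library shares were compared by two-sided exact permutation. The tests were checked on simulated counts first, where the test of share, unlike that of level, made false calls above the 0.05 rate at single times, so its calls are less secure. The test of level found 2%, 10% and 6.5% of simulated 2-fold changes at 24 h, 48 h and 96 h. Of 4-fold changes it found 17.5%, 37.5% and 34%. Members that did not pass are therefore not shown to be unchanged. DESeq2 1.42.0, other scalings, filters and pseudocounts, single-time fits, a replicate block and each left-out library were tried. At these depths precision is set by the spread between 2 or 3 libraries. No libraries were merged: chi-square per degree of freedom between replicates was 11.4 to 51.1, above sampling noise.

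Named members are the 12 most abundant, the 5 largest rises and falls at each time (3 for wild type over time, 4 for share) among members past the threshold with a mean of at least 1 CPM and no overlap of groups, up to 3 per gene list by the p of the 48 h and 96 h mean, all of the TOP1, RBMX and PRP19 list, and members past the test of share at 48 h or of a difference between times. The fixed rule for printing splice sites, members past the share test in the mean of 48 h and 96 h, gave none. The sites shown, PKM-213 and RHPN1-203 were chosen after values were seen, and some members under the rule are not reported here. Whole introns are introns of at least 50 bases of a protein-coding transcript of the gene that lie inside an exon of the member.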

Additional observations from a re-analysis of the deposited data

Results flagged for a closer look

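The knockdown minus wild-type difference in level differed between the 3 times for 14 members (edgeR F test, adjusted p under 0.05), while 0.254% of all transcripts passed, and for 4 members in share of the gene (limma F test), while 0.159% did. Left-out libraries gave 3 to 164 and 1 to 31 calls, the most without knockdown replicate 3 of 48 h.

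The level differed between times for FKBP10-204 (adjusted p = 0.00162) and FKBP10-207 (adjusted p = 0.0425), with 24 h, 48 h and 96 h log2 fold changes of -2.56, -1.85 and -0.12 for the first and -2.88, -1.88 and -0.34 for the second. For CENPT-233 (adjusted p = 0.0369) they were 1.24, 1.50 and 0.32. In 3 members the fold change was negative at 24 h and positive at 48 h. ACSS2-223, of a cytosolic acetyl-CoA synthetase, had -0.90, 0.98 and -0.12 (adjusted p = 0.0222), ACTG1-215, of gamma-actin, had -0.40, 0.36 and -0.03 (adjusted p = 0.0343), and MVD-202, of a mevalonate pathway decarboxylase, had -1.06, 1.69 and -0.30 (adjusted p = 0.0489). The adjusted p of single times was 0.0399, 0.0394 and 0.195 at 24 h and 0.00558, 0.013 and 0.00836 at 48 h.

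In the other 8 of the 14 a whole group was at 0 at 1 time, and folds are bounds. NAGK-212 (adjusted p = 0.000764), COMMD3-214 (adjusted p = 0.0415) and, in the other direction, AARSD1-207 (adjusted p = 0.018) and U2AF1L4-204 (adjusted p = 0.045) had the group at 0 at 24 h. MST1R-209 (adjusted p = 0.026), ENY2-213 (adjusted p = 0.0277) and PER1-209 (adjusted p = 0.0215) were at 0 in wild type at 48 h, at least 47.4-fold, 16.6-fold and 7.07-fold lower than in knockdown. CKAP2L-204 (adjusted p = 0.0399) was at 0 in knockdown at 96 h. In share of the gene the 4 members were CKAP2L-204 (adjusted p = 0.00904), U2AF1L4-204 (adjusted p = 0.0171), CCDC9B-201 (adjusted p = 0.0283) and HSD11B1L-212 (adjusted p = 0.0383), each at 0 in a whole group at 1 time or more.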

How the results depend on the processing

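No called result of a named member reversed its direction under the alternatives run, while 154 of 6287 comparisons of named results changed sign with no call in either fit, 12 of them by more than the SE, and most counts of calls moved. Without 1 library at a time, calls of level lay between 15 and 124 at 24 h, 172 and 1390 at 48 h, 1 and 22 at 96 h, 124 and 857 in the mean of 48 h and 96 h, 3 and 164 between times and 503 and 1311 in wild type over time. Calls of share lay between 2 and 14, 2 and 431, 0 and 1, 0 and 141, 1 and 31 and 160 and 390 in the same order. The library share difference lay between 0.491 and 0.941 points at 24 h, 0.537 and 1.29 at 48 h, 0.0328 and 0.216 at 96 h and 0.462 and 0.712 over the 3 times. With DESeq2 the calls of level were 339, 1231, 107, 889 in the mean and 1799 over time. Without a low-count filter they were 33, 262, 4 and 180, and with at least 1 CPM in 3 libraries 106, 756, 17, 457 and 22 between times. A fit of 1 time alone called 0 and 2 at 24 h and 48 h in level and 0, 0 and 1 at 24 h, 48 h and 96 h in share; it has fewer libraries and transcripts. Members with a whole intron, added after seeing the data, had 44, 244, 147, 6 and 538 calls of level at 24 h, at 48 h, in the mean, between times and over time, and 1, 5, 2 and 150 of share at 24 h, at 48 h, between times and over time. Members with at least 20 counts in all 16 libraries had 46 calls of level at 24 h and 5 between times, and those with at least 100 counts in 3 libraries 6 between times, and 1 and 0 of share at 24 h and between times. For share, a pseudocount of 5 gave 0 at 24 h, 1 at 96 h and 0 between times, a minimum share of 5% gave 14 at 48 h and 4 in the mean, and diffSpliceDGE gave 5 at 24 h, 4 at 96 h, 9 in the mean and 62 over time. At 96 h the median log2 share of the gene differed by -0.020, opposite in sign to the library share difference of 0.132 points; neither passed. The cause of these moves was not tested beyond the smaller sets named.

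Replicate numbers did not pair the libraries: same-numbered wild-type and knockdown libraries had correlations of deviations between -0.192 and 0.0125. With a replicate block the calls of level were 2, 43, 0, 40 and 0 (24 h, 48 h, 96 h, mean, between times) and those of share 0 at 24 h, 0 at 48 h and 0 between times. Of single named results, 524 comparisons with an alternative lost the call, 70 gained it and the others kept their side.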
